A study of Mus musculus with 6 samples.

Results

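The nuclear genes of respiratory complexes II, III, IV and V, with cytochrome c, were followed in gastrocnemius muscle of mice kept on 3 diets and sampled after a short or a long fast. The genes were taken by symbol, as the platform annotation gives it: Sdha to Sdhd, Cyc1, Cycs, and all symbols starting with Uqcr, Cox4 to Cox8, Cox1 followed by a digit, or Atp5. This gave 55 of the 18193 genes with a symbol of their own. Of these, 4 belong to complex II, 9 to complex III, 1 is cytochrome c and 17 belong to complex V. For complex IV, 17 were counted as subunits and 7 as assembly factors. The sorting went by symbol alone, so Cox7a2l counts here as a complex IV subunit by its name. After a filter on low signal, 53 of the 55 were among the 11526 genes tested. The complex IV subunits Cox6b2 and Cox7b2 did not pass it.

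The animals were male C57BL/6J mice that started their diet at 6 weeks of age and ate it for 15 weeks, although the labels also state an age of 21 months. Fat made up 10 kcal% of the Control diet and 60 kcal% of the high-fat (HF) diet. To the same high-fat feed, HF+SFC+ALA added 0.023% by weight of sodium ferrous citrate (SFC), an iron salt, and 0.2% of 5-aminolevulinic acid phosphate (ALA), the precursor from which cells build heme. Muscle was taken 4 h or 24 h after food was withdrawn. RNA was pooled within each of these 6 combinations and each pool was measured on 1 array, so no combination had a replicate. How many animals each pool held was not given in the sources used here. What iron and the heme precursor do to muscle mitochondria of mice fed a high-fat diet was the question of the series. All values are array signal on a linear scale, with the same trimmed mean on every deposited array, and they are listed in the order Control, HF and HF+SFC+ALA. Differences are on the log2 scale and carry the standard error (SE) of a limma fit of diet and fasting time over the 6 pools. The SE rests on what is left between pools after both factors are taken out, drawn toward that of genes of like signal. Of the degrees of freedom behind it, 2 come from the gene's own pools and 7.27 from the genes as a whole. Where diets respond unequally to fasting, that inequality enters the SE only in part. Signals of different probe sets cannot be set against each other, so each gene is compared only with itself. In pooled muscle, fewer cells of a type and less RNA per cell cannot be told apart.

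As background, oxidative phosphorylation passes electrons from food through the inner mitochondrial membrane to oxygen. Complex II (succinate dehydrogenase) takes electrons from succinate, complex III passes them to cytochrome c, and complex IV (cytochrome c oxidase) hands them to oxygen. Complexes III and IV pump protons, and complex V, the ATP synthase, lets the protons flow back to make ATP. Complexes II, III and IV hold heme, cytochrome c carries heme, and complexes II and III hold iron-sulfur clusters. Complex IV needs heme A, which the enzymes encoded by Cox10 and Cox15 make from heme B. Skeletal muscle is rich in these complexes and uses muscle forms of some complex IV subunits, encoded by Cox6a2, Cox7a1 and Cox8b, in place of the forms found in most tissues. A few core subunits are encoded by mitochondrial DNA, and no gene of that kind was named by a symbol of its own here.

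Many of these genes are known targets of the transcription factors NRF1, GABP and ERR-alpha, so the 250 bases before the start of transcription are shown for a few members. RefSeq promoter sequences of the GRCm38.p6 build were at hand for 41 of the 55 genes. Sdha and Cox6a1 hold repeated NRF1 motifs, Atp5h an NRF1 and a GABPA motif, and Cox10, the heme A enzyme described below, a GABPA motif. Cox7a1 and Cox8b encode muscle forms and are set beside the widely expressed Cox6a1. Sequences run 5′ to 3′ on the gene's strand and end just before the start site. Capitals mark the motif matches.
Sdha, chr13:74350241-74350490, minus strand: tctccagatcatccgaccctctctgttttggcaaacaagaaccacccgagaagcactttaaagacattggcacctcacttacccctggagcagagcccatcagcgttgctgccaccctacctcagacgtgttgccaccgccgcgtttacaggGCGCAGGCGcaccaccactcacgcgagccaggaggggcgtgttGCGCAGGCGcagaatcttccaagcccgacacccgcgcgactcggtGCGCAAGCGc
Cox6a1, chr5:115348959-115349208, minus strand: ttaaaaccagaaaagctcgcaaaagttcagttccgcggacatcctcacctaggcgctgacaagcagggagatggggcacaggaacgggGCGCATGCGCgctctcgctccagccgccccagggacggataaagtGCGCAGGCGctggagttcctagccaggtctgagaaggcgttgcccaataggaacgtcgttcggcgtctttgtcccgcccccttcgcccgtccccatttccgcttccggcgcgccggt
Cox7a1, chr7:30183921-30184170, plus strand: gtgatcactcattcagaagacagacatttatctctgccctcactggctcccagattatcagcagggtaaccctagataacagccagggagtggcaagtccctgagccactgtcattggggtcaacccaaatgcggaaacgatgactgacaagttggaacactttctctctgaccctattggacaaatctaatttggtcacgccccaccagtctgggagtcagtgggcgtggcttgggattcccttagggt
Cox8b, chr7:140900447-140900696, minus strand: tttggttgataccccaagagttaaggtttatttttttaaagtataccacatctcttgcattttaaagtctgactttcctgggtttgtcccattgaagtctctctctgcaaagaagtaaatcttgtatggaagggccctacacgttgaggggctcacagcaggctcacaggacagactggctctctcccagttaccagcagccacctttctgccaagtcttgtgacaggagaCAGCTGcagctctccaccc
Cox10, chr11:64079473-64079722, minus strand: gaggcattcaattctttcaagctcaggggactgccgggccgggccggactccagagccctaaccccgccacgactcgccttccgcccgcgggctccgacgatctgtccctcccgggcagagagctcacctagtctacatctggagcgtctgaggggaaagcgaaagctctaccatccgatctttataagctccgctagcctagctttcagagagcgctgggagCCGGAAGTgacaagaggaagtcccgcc
Atp5h, chr11:115419920-115420169, minus strand: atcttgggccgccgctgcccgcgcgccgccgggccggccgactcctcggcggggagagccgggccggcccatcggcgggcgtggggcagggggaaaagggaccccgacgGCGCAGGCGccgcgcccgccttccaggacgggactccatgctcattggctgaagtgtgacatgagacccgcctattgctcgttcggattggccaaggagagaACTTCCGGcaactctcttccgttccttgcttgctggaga
Both strands were searched for 5 exact motifs: NRF1 as GCGCANGCG, GABPA as CCGGAAGT, ERRalpha as TCAAGGTCA, YY1 as AAGATGGC and the E-box CAGCTG of muscle factors. The NRF1 motif was found in 9 of 41 members (22.0%, against 5.86% of all 27025 genes in the RefSeq table). These were Sdha, Sdhd, Cycs, Cox6a1, Atp5c1, Atp5g2, Atp5h, Atp5k and Atp5l. In Cox6a1, Atp5g2 and Atp5k the motif matched both strands at one place, since its reverse complement is nearly the same. Sdha held it 98, 55 and 10 bases before the start, and Cox6a1 162 and 117 bases before it. The GABPA motif was found in 5 members (12.2% against 3.23%), namely Uqcr11, Uqcrh, Cox10, Cox16 and Atp5h. The ERRalpha motif was found in 1 member, Atp5g3 (2.44% against 0.422%), and the YY1 motif in 1, Atp5j (2.44% against 1.83%). The E-box was found in 2 members, Cox8b and Atp5b (4.88% against 14.7%). The Cox7a1 window held none of the 5 motifs. Matches of different motifs did not overlap in any member. A match describes letters only, and no binding was measured.

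Across the comparisons over all pools, no member passed the threshold of an adjusted p of 0.05. For 24 h against 4 h of fasting, 0 of 53 members were called (2.41% of all genes tested were), and 4 had an unadjusted p under 0.05 (17.7% of all genes). For HF against Control, 0 of 53 were called (0.885% of all genes), and 3 had an unadjusted p under 0.05 (14.7% of all genes). For HF+SFC+ALA against HF, 0 of 53 were called (0% of all genes), and 1 had an unadjusted p under 0.05 (5.08% of all genes). The lowest adjusted p-values of members were 0.135 for Cox15 with fasting, 0.266 for Cox11 in HF against Control and 0.921 for Cox17 in HF+SFC+ALA against HF. The median difference over the 53 members was 0.02 between HF and Control, -0.01 between HF+SFC+ALA and HF and 0.00 with fasting. Leaving out 1 pool in turn gave medians from -0.09 to 0.13, from -0.11 to 0.09 and from -0.05 to 0.07.

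The SE was small for most members, though it drew more on genes of like signal than on the member's own pools. The median SE was 0.07 for fasting and 0.09 for each diet comparison. For fasting, the 95% interval of the difference (not adjusted for the number of genes) allowed at most a 25% higher level at either time for 46 of 53 members. The same limit held for 40 members between HF and Control, and for 42 between HF+SFC+ALA and HF. In fasting, all members of complexes II, III and V and cytochrome c lay inside these limits. The 7 members outside them in that comparison were the assembly factors Cox10, Cox11, Cox15 and Cox19 and the subunits Cox4i2, Cox7c and Cox8c. Signals spanned a narrow range mainly in the brighter members. In 44 of 53 members the highest pool was under 25% above the lowest, and the median span was 1.17-fold. A span under 25% was found in 41 of the 42 members with a mean log2 signal above 13. It was found in 3 of the 11 dimmer ones, whose median span was 1.39-fold. The same share was not taken over all genes.

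**Figure D1:**
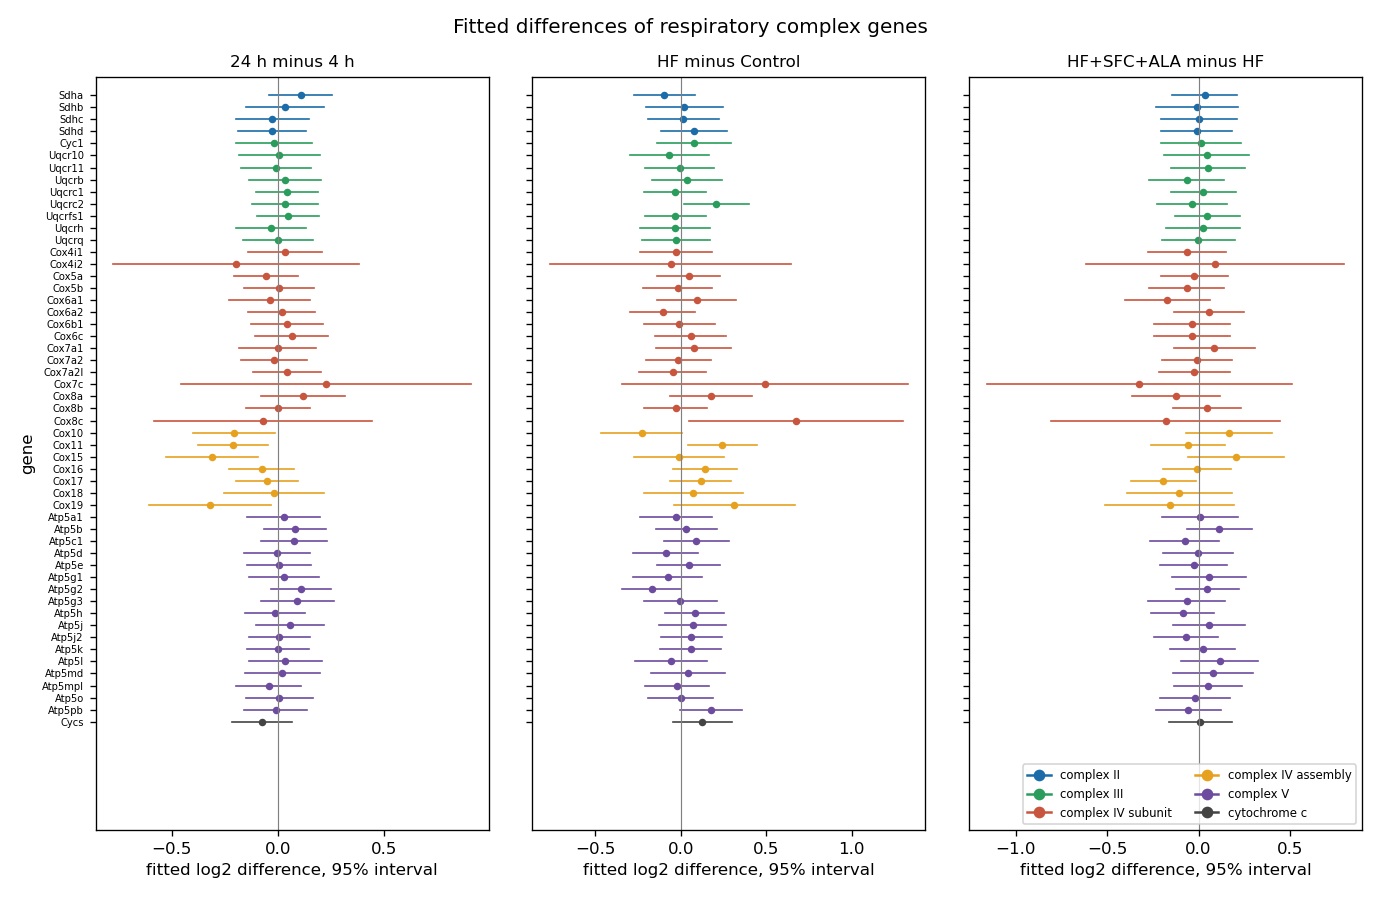
Fitted log2 differences (points) with 95% intervals (lines) for the 53 members tested, one row a gene, for 24 h minus 4 h of fasting, HF minus Control and HF+SFC+ALA minus HF; colours mark the complex or role. Most points lie close to 0, and the complex IV assembly factors lie to the left of 0 in the fasting panel.

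In complex II, the catalytic flavoprotein gene Sdha gave 19096, 17869 and 19365 at 4 h and 21347, 19990.5 and 19298 at 24 h. It was lower in the HF than in the Control pool at both times, and the 4 h and 24 h pools overlapped. Sdha differed by -0.10 ± 0.08, adjusted p = 0.613 between HF and Control. The difference was 0.11 ± 0.07, adjusted p = 0.45 with fasting and 0.03 ± 0.08, adjusted p = 0.992 between HF+SFC+ALA and HF. Sdhb, which encodes the iron-sulfur subunit, gave 28328, 25118 and 27751 at 4 h and 25965, 30122 and 27002 at 24 h. The HF pool at 4 h was the lowest and the HF pool at 24 h the highest, so the HF diet held both ends of the range. Sdhb differed by 0.03 ± 0.08 for fasting, and its difference between HF+SFC+ALA and HF was -0.01 ± 0.10, with a 95% interval of -0.23 to 0.22.

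The membrane anchor genes followed a like order. Signal of Sdhc, one of the anchors that hold the heme of complex II, was 14398, 13589 and 15322 at 4 h and 13964, 15110.4 and 13459 at 24 h. Sdhd, the other anchor, gave 11003, 10938 and 11939 at 4 h and 10614, 11888 and 10740.1 at 24 h. In both genes the HF+SFC+ALA pool at 4 h and the HF pool at 24 h were the highest, and neither diet nor time separated the pools. A dimmer probe set of each gene gave another order. That of Sdhd was highest in the HF pool at 4 h, at 4407, and differed with fasting by -0.26, -1.01 and 0.00 in the order of the diets. That of Sdhc differed by 0.14, -0.07 and -0.35. For HF+SFC+ALA against HF, the 95% interval was -0.21 to 0.21 for Sdhc and -0.21 to 0.19 for Sdhd. The 4 h and 24 h pools of all 4 complex II genes overlapped.

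In complex III, Cyc1, which encodes the heme-bearing cytochrome c1, gave 15682, 15303 and 17593 at 4 h and 15189, 17353 and 15378 at 24 h. The same pair of pools, HF+SFC+ALA at 4 h and HF at 24 h, was highest, and the other 4 pools lay within a narrow band. Cyc1 differed by -0.02 ± 0.08, adjusted p = 0.934 for fasting, and by 0.01 ± 0.10, adjusted p = 0.997 for HF+SFC+ALA against HF. Uqcrfs1, the Rieske iron-sulfur protein, gave 23489, 21743 and 23625 at 4 h and 23338, 24094 and 23699 at 24 h. Its HF pool at 4 h was lower than all others, which overlapped. The largest fasting difference in complex III was that of Uqcrfs1, at 0.05 ± 0.06, adjusted p = 0.758.

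Uqcrc2, a core protein of complex III, gave 19311, 20795 and 21929 at 4 h and 18976, 23504 and 21194 at 24 h. Every HF and HF+SFC+ALA pool lay above both Control pools. It differed by 0.21 ± 0.08 between HF and Control, with an unadjusted p of 0.0349 and an adjusted p = 0.302, and did not pass. Uqcrb, a small subunit that binds ubiquinone, gave 53517, 51280.0 and 54697 at 4 h and 53767, 59094 and 50591 at 24 h. On this probe set, its brightest, the HF+SFC+ALA pool was above the HF pool at 4 h and below it at 24 h. Between HF+SFC+ALA and HF the fitted difference of Uqcrb was -0.07 ± 0.09, adjusted p = 0.977. The other probe set of Uqcrb had HF+SFC+ALA above HF at both times, by 0.19 at 4 h and 0.09 at 24 h. The other members, Uqcr10, Uqcr11, Uqcrc1, Uqcrh and Uqcrq, differed by between -0.03 (Uqcrh) and 0.04 (Uqcrc1) for fasting and none passed.

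Cytochrome c itself, encoded by Cycs, gave 44907, 47245 and 48505 at 4 h and 41197, 46562 and 45891 at 24 h. Both Control pools were below the 4 other pools, and the 24 h pool was below the 4 h pool on each diet. Cycs differed by -0.08 ± 0.06, adjusted p = 0.594 for fasting and by 0.12 ± 0.08, adjusted p = 0.485 for HF against Control, and did not pass. On this probe set, its brightest, Cycs was therefore not among the members that moved in opposite directions with fasting on the HF and HF+SFC+ALA diets, described below. The next probe set of Cycs differed with fasting by -0.11, 0.11 and -0.18 in the order of the diets. The one after it differed by -0.11, 0.01 and -0.08. The place of Cycs in that pattern thus depended on the probe set.

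Among the 15 complex IV subunits tested, the paired isoforms are described first. Cox4i1, the common form of a regulatory subunit, gave 33798, 32417 and 34902 at 4 h and 36333, 36436 and 31039.8 at 24 h. Its HF+SFC+ALA pool at 24 h was the lowest, and the times overlapped. Cox4i2, the form known from lung and low oxygen, gave signals near the low end of the array, at 103, 102 and 132 at 4 h and 107, 99.3 and 87.1 at 24 h. Cox4i2 differed by -0.20 ± 0.26, adjusted p = 0.75 for fasting, and its SE was several times that of Cox4i1. Neither form passed in any comparison.

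Cox6a1, the widely expressed form, gave 8583, 8802 and 9044 at 4 h and 8737, 9686 and 7438 at 24 h. The HF+SFC+ALA pool at 24 h was the lowest and the HF pool at 24 h the highest. It differed by -0.17 ± 0.10, adjusted p = 0.97 for HF+SFC+ALA against HF. The muscle form Cox6a2 gave 29526, 25113 and 27269 at 4 h and 27342, 27739 and 27625 at 24 h, with the HF pool at 4 h lowest and the Control pool at 4 h highest. For HF against Control, Cox6a2 differed by -0.11 ± 0.08 and Cox6a1 by 0.09 ± 0.10, and neither passed. On the other probe set of Cox6a2, HF against Control gave -0.00 at 4 h and 0.16 at 24 h. There the HF pool at 24 h was highest, at 22143, and the HF+SFC+ALA pool at 24 h lowest, at 19431. The pool order of Cox6a2 thus depended on the probe set. Cox6b1, which links the monomers of the complex IV dimer, gave 38631, 35756 and 39089 at 4 h and 39049.9, 41689 and 36265 at 24 h, and did not pass in any comparison. Its testis form Cox6b2 was below the filter, at 36.6, 89.5 and 54.0 at 4 h and 53.9, 58.3 and 27.0 at 24 h.

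The muscle form Cox7a1 gave 21661, 20079 and 23658 at 4 h and 19553, 23414 and 22378 at 24 h. The HF+SFC+ALA pool was above the Control pool at both times, while the HF pool lay below Control at 4 h and above it at 24 h. Cox7a1 differed by 0.09 ± 0.10, adjusted p = 0.974 for HF+SFC+ALA against HF. Cox7a2, the form of most tissues, gave 38849, 36598 and 39703 at 4 h and 37998, 39601 and 36054 at 24 h, and its 4 h and 24 h pools overlapped. The muscle form Cox8b gave 39337, 36887 and 40955 at 4 h and 38962, 39849.9 and 38258 at 24 h, and its fitted fasting difference was -0.00 ± 0.07, with a 95% interval of -0.15 to 0.15. Cox8a, the form of most tissues, gave 1705, 1777 and 1834 at 4 h and 1798, 2202 and 1794 at 24 h. Its HF pool at 24 h stood above the rest, and its fasting difference was 0.12 ± 0.09, adjusted p = 0.539. No muscle form and no widespread form passed, and the differences between forms were not tested.

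The largest complex IV subunit differences were on probe sets of low signal, which need not mean a low level of the transcript. Cox8c, the form known from testis, gave 198, 505 and 392 at 4 h and 323, 323 and 324 at 24 h. The 24 h pools were nearly equal, while the Control pool at 4 h was the lowest and the HF pool at 4 h the highest. Cox8c differed by 0.67 ± 0.28 between HF and Control, with an unadjusted p of 0.038 and an adjusted p = 0.312. Without the Control pool at 24 h the fitted signal was 2.39-fold higher in HF, with an adjusted p = 0.000203, so that the call turned on 1 pool. Cox7c gave 61.3, 93.9 and 102 at 4 h and 98.3, 127 and 74.8 at 24 h, and spanned 2.07-fold over the pools. It differed by 0.23 ± 0.30, adjusted p = 0.757 for fasting and by -0.33 ± 0.37, adjusted p = 0.974 for HF+SFC+ALA against HF. The other probe set of Cox7c was under the floor of 26.4 in every pool. The remaining subunits Cox5a, Cox5b, Cox6c and Cox7a2l had fasting differences from -0.06 (Cox5a) to 0.06 (Cox6c), and Cox7b2 was under the floor of 26.4 in 5 of 6 pools.

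The complex IV assembly factors had the lowest median fasting difference of the groups of members. All 7 had a fitted difference below 0, with a median of -0.21, against a median near 0 for each group of subunits, and none passed. On the HF diet 3 of the 7, Cox17, Cox18 and Cox19, were higher at 24 h, by 0.03, 0.10 and 0.12. In 4 of the 7, Cox10, Cox11, Cox15 and Cox16, the 24 h pool was below the 4 h pool on every diet, a pattern found in 18.3% of all genes tested. The 4 members with an unadjusted p under 0.05 for fasting, Cox10, Cox11, Cox15 and Cox19, were all assembly factors (7.86% of all genes reached this with a lower signal at 24 h). The 24 h pools lay wholly below the 4 h pools in Cox10 and Cox15, as they did in 8.36% of all genes.

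Cox10, the farnesyltransferase that turns heme B into heme O, gave 1520.5, 1398 and 1459.6 at 4 h and 1386, 1097 and 1327 at 24 h. Each 24 h value was below every 4 h value, the HF pool at 24 h being the lowest. With fasting Cox10 differed by -0.21 ± 0.09, adjusted p = 0.251. Between HF and Control it differed by -0.23 ± 0.10, adjusted p = 0.348, and between HF+SFC+ALA and HF by 0.17 ± 0.10, adjusted p = 0.97. The next probe set of Cox10 was also lower at 24 h on each diet, by -0.23, -0.08 and -0.46 in the order of the diets, against -0.13, -0.35 and -0.14 on the first. Its HF+SFC+ALA pool at 24 h was lower than the HF pool, by -0.23, where the first probe set had it higher, by 0.28. The dimmest probe set of Cox10 differed by -0.48, 0.08 and 0.10 with fasting.

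Cox15, which oxidises heme O to heme A, gave 1468, 1569 and 1568 at 4 h and 1188, 1096 and 1456 at 24 h. The 24 h pools were below all 4 h pools, and the HF+SFC+ALA pools differed least between the times. Its fasting difference was -0.31 ± 0.10, adjusted p = 0.135, and HF+SFC+ALA differed from HF by 0.20 ± 0.12, adjusted p = 0.97. The other 3 probe sets of Cox15 did not show this order. They differed with fasting by 0.04, 0.23 and -0.06, by -0.11, -0.02 and -0.09, and by 0.44, 0.29 and 0.05 in the order of the diets. On these 3 the HF+SFC+ALA pool was above the HF pool at both times, by 0.37 and 0.08, 0.35 and 0.28, and 0.63 and 0.40, whereas the first probe set had -0.00 at 4 h and 0.41 at 24 h. The first is of a kind whose name ends in _x_at, which the array's maker gives to probes that can match other transcripts, as do 15 of the 53 members' probe sets with those ending in _s_at. The fasting difference of Cox15 thus depended on the probe set.

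Of the factors that bring copper to complex IV, Cox19 gave 2402, 2294 and 2503 at 4 h and 1545, 2500.2 and 1839 at 24 h. The Control and HF+SFC+ALA pools were lower at 24 h, and the HF pool was not. Cox19 differed by -0.32 ± 0.13, adjusted p = 0.237 for fasting and by 0.31 ± 0.16, adjusted p = 0.387 for HF against Control. It passed for fasting, at -0.54, when either HF pool was left out (adjusted p = 0.0186 without that at 4 h, 0.0189 without that at 24 h), and it passed for HF against Control, at 0.55 with an adjusted p = 0.00383 without the Control pool at 4 h and 0.65 with an adjusted p = 0.0284 without the HF pool at 4 h. These calls turned on which pool was left out. Cox11 and Cox17, named here after their values were seen, also take part in copper delivery. Cox11 gave 3151, 3472 and 3375 at 4 h and 2497, 3168 and 3003 at 24 h, lower at 24 h on each diet and lower in Control than in either high-fat pool at each time. It differed by -0.21 ± 0.07, adjusted p = 0.175 for fasting and by 0.24 ± 0.09, adjusted p = 0.266 for HF against Control. Cox17 gave 13523, 14234 and 13199 at 4 h and 13050.2, 14564 and 11995 at 24 h, lower in HF+SFC+ALA than in HF at both times, and differed by -0.19 ± 0.08, adjusted p = 0.921 between them. Cox16 and Cox18, which help to build the complex around its mitochondrially encoded subunits, differed by -0.08 ± 0.07 and -0.02 ± 0.10 for fasting.

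**Figure D2:**
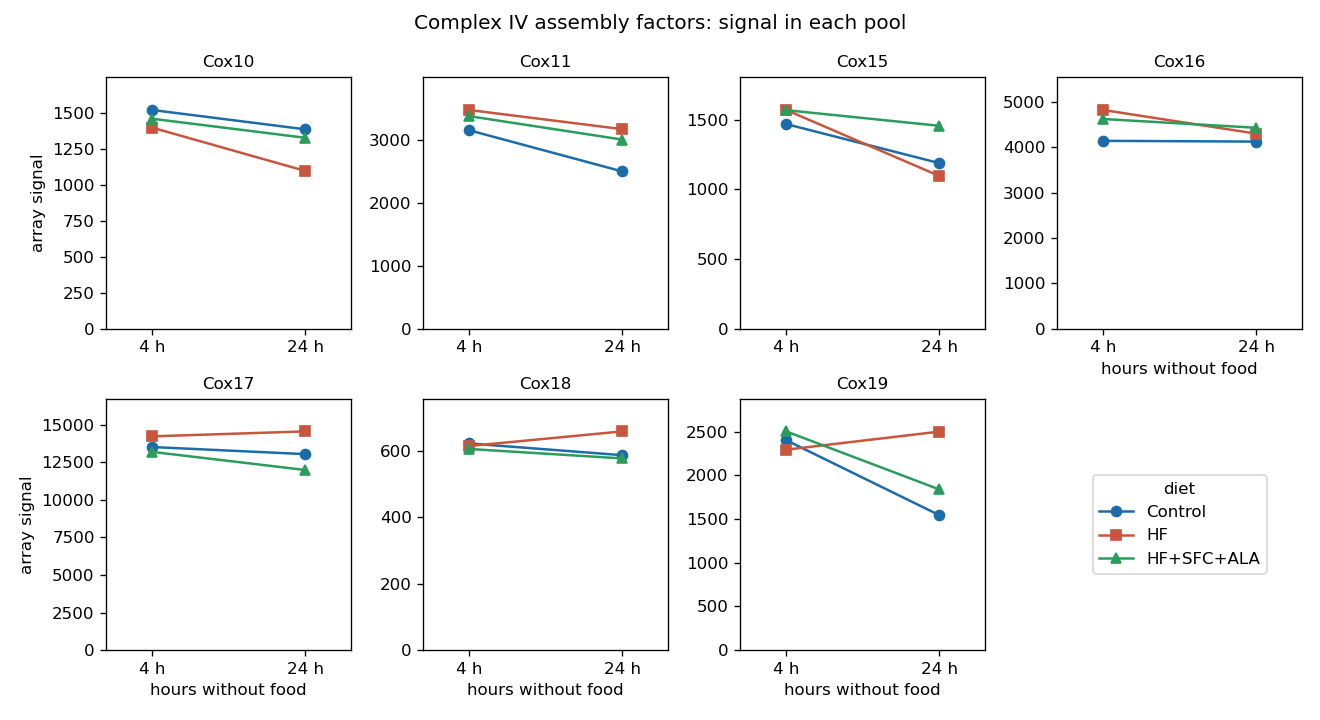
Array signal of the 7 complex IV assembly factors, one panel a gene with its own axis from 0, against hours without food; each point is 1 pool and lines join the pools of a diet. Cox10, Cox11, Cox15 and Cox16 are lower at 24 h on all 3 diets, while Cox17, Cox18 and Cox19 are higher at 24 h on the HF diet.

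In complex V, the members lay close together. Atp5g2, one of the genes of the proton-carrying c ring, gave 16018, 13605 and 14417 at 4 h and 16501, 15351 and 15465 at 24 h. The Control pools were above the other pools of the same time, and the 24 h pool was above the 4 h pool on each diet. It differed by 0.11 ± 0.06, adjusted p = 0.426 for fasting and by -0.17 ± 0.08, adjusted p = 0.346 for HF against Control. Atp5pb, the b subunit of the stalk, gave 35865, 39716 and 40564 at 4 h and 36019.7, 41567 and 37669.7 at 24 h, with both Control pools below the others. For HF against Control it differed by 0.18 ± 0.08, adjusted p = 0.345. On the other probe set of Atp5pb, HF differed from Control by -0.01 at 4 h and 0.19 at 24 h. The order of its pools thus depended on the probe set. Atp5l, the g subunit in the membrane part, gave 21285, 20703 and 24778 at 4 h and 23669.5, 22507 and 22045 at 24 h, with the HF+SFC+ALA pool at 4 h highest. It differed by 0.11 ± 0.09, adjusted p = 0.973 between HF+SFC+ALA and HF.

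The other complex V genes did not pass either. The genes of the catalytic head and central stalk, Atp5a1, Atp5b, Atp5c1, Atp5d and Atp5e, differed by between -0.00 (Atp5d) and 0.08 (Atp5b) for fasting. Atp5g1 and Atp5g3, which encode the same mature c ring protein as Atp5g2, differed by 0.03 ± 0.07 and 0.09 ± 0.08. The stalk and membrane genes Atp5h, Atp5j, Atp5j2, Atp5k, Atp5o, Atp5md and Atp5mpl differed by between -0.04 (Atp5mpl) and 0.06 (Atp5j). Over all 17, 13 had a positive fitted fasting difference and 4 a negative one, with a median of 0.02.

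The brighter members shared an order of pools that the additive comparisons do not show. With fasting, the HF pools differed by a median of 0.14 over the members, with 45 of 53 higher at 24 h (53.3% of all genes tested were). The HF+SFC+ALA pools differed by a median of -0.11, with 50 of 53 lower at 24 h (50.1% of all genes). The Control pools differed by a median of -0.01, with 32 of 53 lower (49.4% of all genes). In 42 of 53 members (79.2%) signal was higher at 24 h on HF and lower at 24 h on HF+SFC+ALA, against 22.8% of all genes, and no member had the opposite pattern. The pattern was found in 37 of the 42 members with a mean log2 signal above 13 and in 5 of the 11 dimmer ones. In the dimmer members the median was -0.04 with fasting on HF (5 higher, 6 lower) and -0.14 on HF+SFC+ALA (11 lower). These differences were small. Between the HF pools 1 of 53 members was at least 25% higher at 24 h (16.5% of all genes were) and 3 were at least 25% lower (12.7% of all genes). Between the HF+SFC+ALA pools these counts were 0 (13.7% of all genes) and 3 (11.9% of all genes). Each such pair is 1 pool against 1 pool, so these differences have no replicate check, and the difference between diets in the fasting response was not tested.

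The same 4 pools set the diet differences at each time. At 4 h, HF was below Control by a median of -0.06, with 38 of 53 members lower (51.8% of all genes), although the median of the 11 dimmer members was 0.06, and HF+SFC+ALA was above HF by 0.11, with 46 higher (50.2% of all genes). At 24 h, HF was above Control by 0.09, with 43 higher (50.6% of all genes), and HF+SFC+ALA was below HF by -0.14, with 47 lower (52.8% of all genes). The HF pool at 24 h was the highest of the 6 in 24 members and the HF+SFC+ALA pool at 4 h in 19. The HF pool at 4 h was the lowest in 23 and the HF+SFC+ALA pool at 24 h in 14. No member was highest in the HF+SFC+ALA pool at 24 h or lowest in that at 4 h. Counts of highest and lowest pools were made for members only, so no share over all genes stands beside them.

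**Figure D3:**
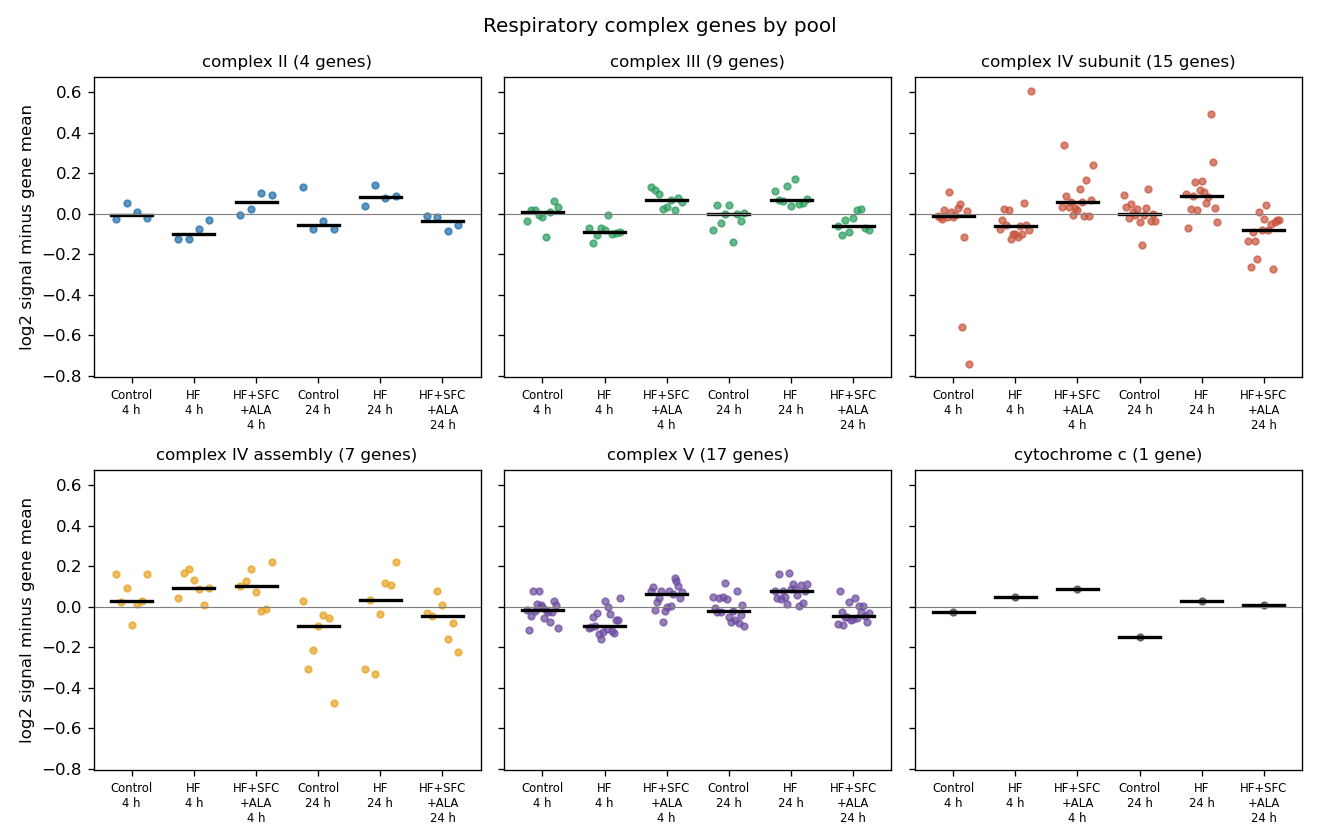
Log2 signal of each member minus its mean over the 6 pools, one panel a complex or role; points are genes and black bars the median of a pool. In complexes II, III and V and the complex IV subunits the medians of the HF+SFC+ALA pool at 4 h and the HF pool at 24 h lie above 0 and those of the HF pool at 4 h and the HF+SFC+ALA pool at 24 h below it, while the assembly factors and cytochrome c do not follow this order.

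The pattern was shared between complexes. Signal was higher at 24 h on HF and lower on HF+SFC+ALA in 4 of 4 members of complex II, 8 of 9 of complex III, 11 of 15 complex IV subunits and 16 of 17 of complex V. It was so in 3 of 7 complex IV assembly factors and not in cytochrome c. These counts use the brightest probe set of each gene. On HF, other probe sets past the filter differed from it in sign in Cycs, Sdhc, Sdhd, Uqcrb, Cox5a, Cox6c and Cox7a2l. The same held for Cox10, Cox15, Atp5a1, Atp5g1, Atp5j2 and Atp5o. In Cycs, Uqcrb, Cox5a, Cox6c and Atp5o such a probe set had a mean log2 signal above 13. With fasting on HF, the median was 0.16 in complex II, 0.17 in complex III, 0.14 in the complex IV subunits and 0.14 in complex V, and -0.13 in the assembly factors. On HF+SFC+ALA it was -0.10, -0.13, -0.14 and -0.09 in the same groups, and -0.14 in the assembly factors. The assembly factors were thus lower at 24 h by their median on both diets. Other probe sets of the members, 39 of 27 genes that passed the filter, had medians of 0.11 with fasting on HF (26 higher, 13 lower) and -0.11 on HF+SFC+ALA (6 higher, 33 lower). Gene by gene, 23 of the 39 had the sign of the brightest probe set on HF and 32 on HF+SFC+ALA. Among the 16 with a mean log2 signal of at most 13, these counts were 6 and 10, and the median on HF was -0.03.

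The order was not limited to these genes. Of the 53 members, 42 had a mean log2 signal above 13. Among the 588 other genes as bright, 36.6% were higher at 24 h on HF and lower on HF+SFC+ALA, with medians of 0.04 and -0.05. After quantile normalization, the members' median was 0.07 with fasting on HF and -0.05 on HF+SFC+ALA, against 0.14 and -0.11 before it. The actin control probe sets give a ratio of 3′ over 5′ signal that is a sign of RNA integrity, and it was 1.52 in the HF pool at 4 h, where 23 of 53 members were lowest, and 1.08 to 1.22 in the others. It was nearly the same in the HF+SFC+ALA pools, at 1.21 at 4 h and 1.22 at 24 h, between which 50 of 53 members were lower. The same ratio for the Gapdh control was 0.832 in the HF pool at 4 h, within its range of 0.814 to 0.863 over the pools. The part of these measures in the result was not tested. The labelled tissue is skeletal muscle, and all 10 of its markers passed the filter. All 10 were higher at 24 h on HF and lower on HF+SFC+ALA, with medians of 0.21 and -0.11, which became 0.00 and -0.03 after quantile normalization, and their summed signal ran from 412867 to 476201.

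Slow fibre genes had the same order with larger differences. In the slow fibre list, which holds contractile genes of oxidative fibres such as Myh7 and Tnnt1, 9 of 10 genes were higher at 24 h on HF and lower on HF+SFC+ALA, with medians of 0.69 and -0.45 (0.69 and -0.42 after quantile normalization). Their summed signal was 107301, 79865 and 118826 at 4 h and 89308, 125283 and 92182 at 24 h. It was lowest in the HF pool at 4 h and highest in the HF pool at 24 h, as in many members. All 10 fast fibre genes had the pattern as well, with medians of 0.20 and -0.11. After quantile normalization these became 0.01 and -0.01, against 0.07 and -0.05 for the members. Their summed signal ran from 437947 to 508214. The amount of slow or fast fibre tissue in a pool was not measured, and its part in the members' differences was not tested.

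**Figure D4:**
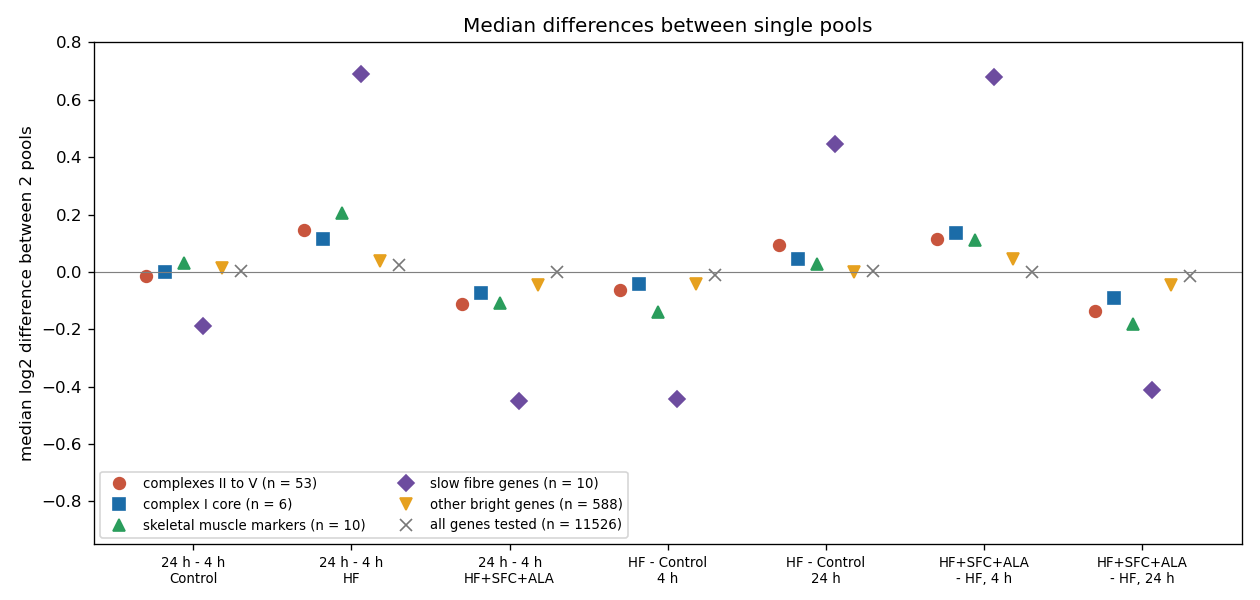
Median log2 difference between 2 single pools for the 53 members, complex I core subunits, skeletal muscle markers, slow fibre genes, other genes with a mean log2 signal above 13 and all genes tested; the first 3 positions are 24 h minus 4 h on each diet and the rest diet differences at each time. The members' medians lie between -0.14 and 0.14 and share their sign with the slow fibre genes at each position, where the slow fibre medians are larger.

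Markers of some other cell types differed with diet. The summed signal of 8 adipocyte markers was 75711 and 82697 in the Control pools, 90355 and 95068 in the HF pools and 81904 and 81413 in the HF+SFC+ALA pools. Car3 and Fabp4 carried most of this sum, with 47691 and 21626 in the Control pool at 4 h. Of the 8 markers, 3 were called higher in HF than in Control (0.564% of all genes were). In that comparison 7 had a positive difference and 1, Plin4, a negative one, at -0.13 ± 0.13. Pck1 was lower in HF than in Control at 4 h, by -0.88, and higher at 24 h, by 1.14. All 8 had a negative difference between HF+SFC+ALA and HF, with none called. The called markers were much farther apart than the sum. Adipoq differed by 2.63 ± 0.21, adjusted p = 0.00275, Lep by 3.74 ± 0.30, adjusted p = 0.00275, with 1 Control pool under the floor, and Cidec by 1.91 ± 0.22, adjusted p = 0.00741. Of 7 fibroblast markers, 4 were called higher in HF than in Control, and their sum ran from 32076 to 42593. Macrophage markers, 9 in all, were each higher in HF than in Control at both times, with none called and a sum of 2882 to 5005. Of 7 endothelial markers, 4 had a positive and 3 a negative difference between HF and Control, with a median of 0.03 and none called. Cox8b is also known from brown fat, where Ucp1 is the defining marker, and Ucp1 was below the filter. The part of these cells in the members' differences was not tested.

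Other genes of the pathway were taken from lists of complex I core subunits, assembly factors and regulators of mitochondrial biogenesis, 49 of which passed the filter. Of these, 1 was called lower and 0 higher with fasting (0.92% and 1.49% of all genes were), and 0 were called in either diet comparison. The called gene was Ppargc1a, the coactivator PGC-1alpha that drives mitochondrial biogenesis. It gave 2991, 2515 and 2314 at 4 h and 978, 1798 and 1239 at 24 h, with each 24 h pool below every 4 h pool, and differed by -0.9995 ± 0.17, adjusted p = 0.0212. Esrra, which encodes ERR-alpha, gave 2220.2, 2148 and 2643 at 4 h and 1726, 1876 and 1989 at 24 h, and its difference was -0.32 ± 0.08, adjusted p = 0.0696. Gabpa and Tfam, a subunit of GABP and the mitochondrial DNA packaging factor, differed by 0.20 ± 0.08, adjusted p = 0.221 and by 0.19 ± 0.07, adjusted p = 0.203, both higher at 24 h on each diet. Nrf1 differed by 0.12 ± 0.20, adjusted p = 0.811, with the HF pools opposite to the others.

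Assembly factors outside the symbol rule gave a mixed picture. Of 16 for complex IV, 10 had a negative and 6 a positive fasting difference, with a median of -0.04, 7 lower and 4 higher on every diet, and none called. Coa5, a complex IV assembly protein, differed by -0.26 ± 0.06, adjusted p = 0.0731. Of 6 for complex III, 5 had a negative difference, among them Bcs1l, which inserts the Rieske protein, at -0.35 ± 0.08, adjusted p = 0.065. For complexes II and V, 3 of 4 and 3 of 5 were negative. The 6 complex I core subunits had medians of 0.11 with fasting on HF (6 higher) and -0.07 on HF+SFC+ALA (4 lower), with none called.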

How the data were processed

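Gastrocnemius RNA of 6 pools was measured on 6 arrays. Each probe set has 1 deposited intensity per array, unlogged, which the authors computed by MAS5 according to the submitters' processing notes (version and settings: not given in the sources used here). All arrays had a trimmed mean of 500.0. Their small number limits the precision.

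The arrays hold 45101 probe sets. Without the 64 controls, 34945 had 1 symbol in the platform annotation. Where a gene had several, the one brightest by mean log2 signal stood for it. Signals under a floor of 26.4, the 30th percentile, were raised to it, and genes with a mean log2 signal above 5.88 (the 50th percentile) were kept. The limma package (3.58.1, under R 4.3.3) fitted log2 signal (diet plus fasting time, eBayes with an intensity trend, 2 residual and 7.27 prior degrees of freedom), with Benjamini-Hochberg adjustment over 11526 genes. The fit was tested on simulated data. Counts and medians over members have no test. Promoters are RefSeq's, GRCm38.p6. Figures were drawn with matplotlib 3.10.9, and tables handled with numpy 2.4.6 and pandas 2.3.3 under Python 3.11.15.

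The members, lists and rules were chosen with earlier results of these data known. Named with all values are the largest difference in each complex and comparison, isoform pairs, Sdh genes, Cyc1, Cycs, Cox10 and Cox15. Alternatives were quantile normalization, other filters, no floor, a pseudocount, the mean over probe sets, no trend, a model without the other factor, leaving out each pool and, added after seeing the data, splits and centring by bright genes.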

Additional observations from a re-analysis of the deposited data

Results flagged for a closer look

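Fasting differences of opposite sign on the HF and HF+SFC+ALA diets stood out, since the medians moved in opposite directions on the diets. The HF median minus the HF+SFC+ALA median was 0.26 over all 53 members, 0.25 in complex II, 0.29 in complex III, 0.28 in the complex IV subunits and 0.23 in complex V. The difference between HF and Control also had opposite signs at the fasting times. Its median at 4 h minus that at 24 h was -0.16 over all members, -0.23 in complex II, -0.20 in complex III, -0.13 in the complex IV subunits and -0.16 in complex V. Each median compares single pools, the same HF pools enter both sets of values, and neither difference was tested.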

How the results depend on the processing

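The model of both factors compares the times within each diet, so diet is already a block. Beyond that, no paired analysis was possible because no combination held more than 1 pool. No named member changed sign past the threshold under any alternative run. The 53 members held 0 calls under every alternative that kept all 6 pools. Leaving out 1 pool gave 0 to 1 called lower with fasting, 0 to 1 called higher in HF against Control and 0 in HF+SFC+ALA against HF, and the members' medians ranged from -0.053 to 0.068, -0.093 to 0.13 and -0.11 to 0.091. The median of the members with a mean log2 signal of at most 13 was 0.14 for HF against Control.

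The count of all genes called depended on the settings. With fasting it was 278, and 0 without the filter, 18 with the mean over probe sets, 0 without the intensity trend, 60 without diet in the model and 59 to 455 without 1 pool. For HF against Control it was 102, and 0, 1 and 0 under the first 3 of these, 0 without fasting time and 47 to 592 without 1 pool. For HF+SFC+ALA against HF it was 0 (585 at an unadjusted p under 0.05), 6 with a filter at the 65th percentile and 0 to 109 without 1 pool.

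Most medians between single pools shrank after quantile normalization. With fasting they became 0.068 on HF and -0.051 on HF+SFC+ALA. HF against Control at 4 h became -0.025, and HF+SFC+ALA against HF became 0.048 at 4 h and -0.048 at 24 h. The fasting median on Control instead moved away from 0, from -0.014 to -0.037. After subtracting the median of other bright genes, fasting gave -0.027 on Control and -0.065 on HF+SFC+ALA, HF against Control at 4 h gave -0.022, and HF+SFC+ALA against HF at 4 h gave 0.069. Over the 11 dimmer members, fasting on HF gave -0.043, HF against Control 0.060 at 4 h and 0.060 at 24 h, and HF+SFC+ALA against HF at 4 h 0.045. The HF fasting median and the HF against Control median at 4 h thus had the opposite sign in dimmer members. The cause was not tested.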
